A study of Mus musculus with 8 samples.

Results

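The genes described here are 8 genes of the fetal-like and regenerative programme of intestinal epithelium: Msln, Clu, Anxa1, Anxa3, Cd44, Spp1, Yap1 and Ccn1. They were chosen by name from the 18262 genes listed in a deposited RNA sequencing table of mouse colon. All 8 were listed under the name given. The study compared colon of mice in a DSS + GAA group with colon of mice in a DSS group, with 4 libraries each, numbered 1, 2, 4 and 5 in both. Both groups were labelled as wild type and both were given dextran sulfate sodium (DSS), which damages the lining of the colon and causes colitis. The DSS + GAA mice were in addition treated with GAA, ganoderic acid A, a compound of Ganoderma fungi. Its dose was 20 mg/kg by the titles, whereas the treatment labels of the 4 libraries read 20, 21, 22 and 23 mg/kg, so the libraries were kept as a single group. Strain, sex, age, the course of DSS and whether animals were pooled are not given in the sources used here. Colon without colitis was not analysed here, so no healthy level is available. The series title names the IL-17 pathway and RORA as the study's subject, and these 8 genes are a separate readout of the same libraries.

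When colonic crypts are damaged, the surviving epithelium can switch for a time to a repair state that resembles fetal gut. This state is marked by genes such as Ly6a, Anxa1 and Clu and is driven by YAP and TAZ, transcriptional coactivators that the kinase cascade of the Hippo pathway holds in check. In the nucleus YAP and TAZ act mostly through DNA-binding TEAD factors, and Ccn1 and Ccn2 are their best-known targets. Most of the 8 genes are also expressed outside the epithelium. Msln is a classical gene of mesothelium, Spp1 of macrophages, Ccn1 of fibroblasts and endothelium, and Cd44 of leukocytes and stroma, so whole colon does not tell which cells carried the transcripts.

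Of the 8 genes, 6 fell in DSS + GAA colon, 0 rose and 2 did not pass the test. TPM (transcript abundance scaled to a fixed library total), the deposited unit, divides reads by transcript length and by the library's total. A gene was tested where its TPM reached 1 in at least 4 of the 8 libraries, which held for 14217 genes and for all 8. The groups were compared with limma on log2(TPM + 1), and an adjusted p under 0.05 over all tested genes counted as passing. Of all tested genes, 34.1% passed, 28.2% as lower and 5.96% as higher in DSS + GAA, so falls were common on TPM as deposited. There 82.5% of the calls were lower, against 46.6%, 48.8% and 37.7% after trimmed mean, quantile and median rescaling. Over all tested genes these rescalings gave fewer falls and more rises. Median centring gave 1308 falls and 2165 rises, against 4006 and 847 as deposited. The 28.2% and 5.96% therefore belong to TPM as deposited and not to counts after rescaling. The median log2 fold change was -1.30 over the 8 genes and -0.25 over all tested genes. On TPM as deposited, 5 of the 8 genes had every DSS + GAA library below every DSS library, as did 27.6% of the tested genes and 24.8% of all listed genes. In whole tissue, fewer cells of a type and less RNA per cell cannot be told apart.

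**Figure D1:**
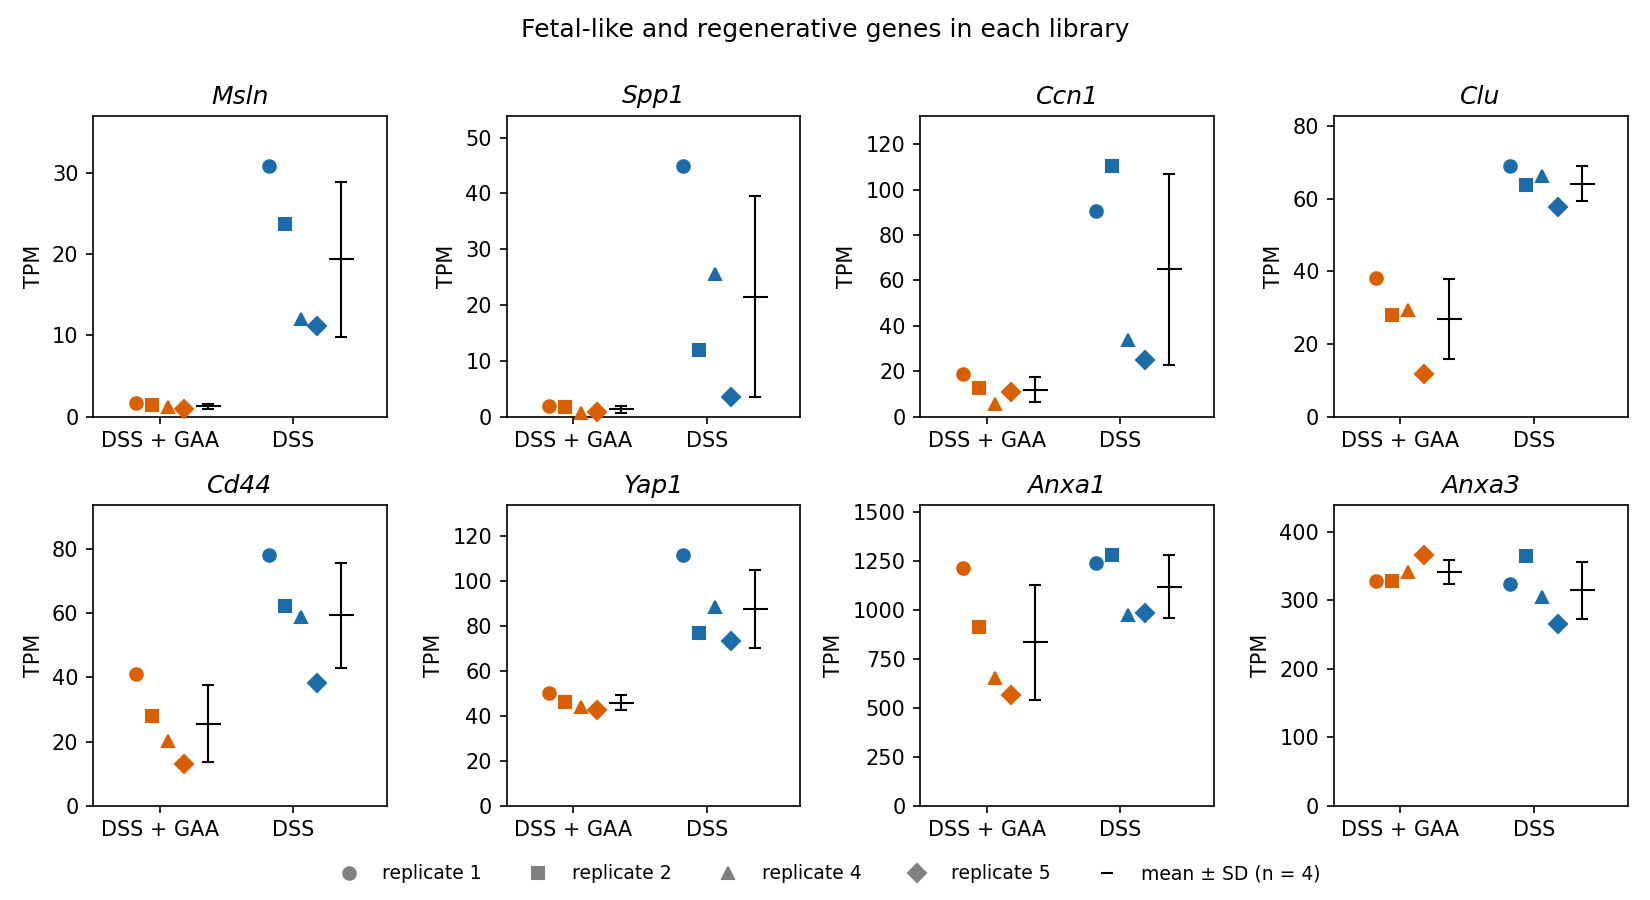
TPM of the 8 genes in each library, in panels with a linear axis from 0; markers give the replicate number, and the bar is the mean ± SD of 4 libraries. The DSS + GAA libraries lie below the DSS libraries without overlap for Msln, Spp1, Ccn1, Clu and Yap1, and the groups overlap for Cd44, Anxa1 and Anxa3.

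Msln encodes mesothelin, a surface glycoprotein anchored by a lipid tail (chromosome 17, 25748613 to 25754378, minus strand, GRCm38). It measured 1.63, 1.48, 1.16 and 0.922 TPM in DSS + GAA libraries 1, 2, 4 and 5, against 30.9, 23.7, 11.97 and 11.1 TPM in the DSS libraries of those numbers. The lowest DSS library stood far above the highest DSS + GAA library, and the DSS libraries differed among themselves by a factor of 2.77. The mean TPM was 14.9 times as high in DSS as in DSS + GAA. On the log2 scale Msln fell by 3.04 ± 0.31 (standard error; limma adjusted p = 0.00425), with a 95% interval from -3.75 to -2.33, and 0.26% of the tested genes had a lower fold change. The size of the fall depends on the constant added before taking logs, at -3.70 with 0.1 and -1.87 with 5, and Msln was near 1 TPM in DSS + GAA.

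The more specific genes of mesothelium were weakly expressed in these libraries. Of 12 listed mesothelial genes, 7 were tested, and 5 of them fell, where 28.2% of all tested genes fell. The 5 were Msln, Upk1b, Rspo1, Igfbp5 and Gpm6a. Rspo1 was under 1 TPM in every DSS + GAA library and met the test's minimum only through the DSS libraries. Its call could therefore only be a fall. The uroplakin gene Upk1b averaged 1.09 ± 0.377 TPM in DSS + GAA and 4.48 ± 1.71 TPM in DSS (SD, n = 4 each; limma adjusted p = 0.00666). The defining transcription factor gene Wt1 was below the test's minimum, at a mean of 0.119 ± 0.0834 TPM in DSS + GAA and 0.960 ± 0.766 TPM in DSS (SD, n = 4 each), and so were Upk3b, Lrrn4, Bnc1 and Muc16, the last of which encodes the mucin that binds mesothelin. The whole list summed to 2988 to 4066 TPM in DSS + GAA and 3809 to 4481 TPM in DSS, most of it from Krt19 and Slpi, which epithelium also expresses, and Igfbp5, which fibroblasts also express. The number that fell was 2 of 6 tested without DSS replicate 1, and 3 of 6 without DSS replicate 4 or 5. Rspo1 missed the test's minimum in those fits. The number was also 3, of 7 tested, after quantile normalization or median centring. The part of mesothelium in the Msln difference was not tested.

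Spp1 encodes osteopontin, a secreted phosphoprotein that binds integrins and CD44 (chromosome 5, 104435118 to 104441050, plus strand). It measured 2.00, 1.71, 0.594 and 0.898 TPM in DSS + GAA libraries 1, 2, 4 and 5, against 44.9, 11.96, 25.5 and 3.55 TPM in the DSS libraries of the same numbers. The groups did not overlap, but the DSS libraries spread over a factor of 12.7, the widest within-group range of the 8 genes. Spp1 fell by 2.88 ± 0.62 on the log2 scale (limma adjusted p = 0.0104), with a 95% interval from -4.27 to -1.48. With a constant of 5 in place of 1 the log2 fold change was -1.79.

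Cd44 encodes the main hyaluronan receptor, which also binds osteopontin and is a Wnt target in crypts (chromosome 2, 102811141 to 102901665, minus strand). It measured 41.2, 27.9, 20.3 and 13.0 TPM in DSS + GAA libraries 1, 2, 4 and 5, against 78.0, 62.3, 58.7 and 38.2 TPM in the DSS libraries of the same numbers. The groups overlapped, since DSS + GAA replicate 1 lay above DSS replicate 5. Cd44 fell by 1.25 ± 0.33 on the log2 scale (limma adjusted p = 0.0206). This call was the least stable of the 6, with an adjusted p of 0.00361 to 0.0709 over 20 processing alternatives. It did not pass under any of the 3 rescalings, by trimmed mean (0.0664), quantiles (0.0518) or median (0.0695). Leaving out DSS replicate 1 (0.0709), DSS replicate 2 (0.0529) or DSS + GAA replicate 4 (0.0508) also ended the call. The table gives a value per gene, so the splice variants of Cd44 were not separated.

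Several receptors and ligands of these proteins fell as well. Of 33 tested partner genes, 15 fell and 0 rose, where 28.2% of all tested genes fell. The median log2 fold change of the partner genes was -0.64. The integrin subunit gene Itgb8 averaged 1.03 ± 0.598 TPM in DSS + GAA and 17.6 ± 5.58 TPM in DSS, and Itga5, whose product pairs with integrin beta 1, averaged 29.1 ± 15.9 TPM in DSS + GAA and 110 ± 31.4 TPM in DSS (SD, n = 4 each). Itgb3, a subunit of the integrin that binds osteopontin and CCN1, fell by 1.48 on the log2 scale (limma adjusted p = 0.0158), and Itgb1, of the beta 1 chain, also passed (0.019), whereas Itgav (-0.89, 0.0706) and Itgb5 (-0.38, 0.201) did not pass. Cemip, whose product degrades hyaluronan, the ligand of CD44, averaged 2.48 ± 1.89 TPM in DSS + GAA and 47.9 ± 32.1 TPM in DSS. The hyaluronan synthase genes Has2 and Has3 did not pass, with log2 fold changes of -0.41 and 0.12. The number of partner genes that fell was 6 under the trimmed mean and median rescalings, where 1 and 3 rose, and 6 without DSS replicate 1, where Itgb1 and Itgb3 no longer passed. It was 9 without DSS + GAA replicate 4. Itgb1 also missed there and under the trimmed mean and median rescalings. On the median scale 1308 of all tested genes fell, against 4006 as deposited.

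Yap1 encodes YAP itself (chromosome 9, 7931999 to 8004596, minus strand). It measured 50.2, 46.4, 44.0 and 42.6 TPM in DSS + GAA libraries 1, 2, 4 and 5, against 111, 76.8, 88.6 and 73.3 TPM in the DSS libraries of the same numbers. The DSS + GAA libraries were the tighter group, with a highest-to-lowest ratio of 1.18 there and 1.52 in DSS, and the groups did not overlap. Yap1 fell by 0.90 ± 0.14 on the log2 scale (limma adjusted p = 0.00554), the smallest fall among the 6 genes that passed and the one with the smallest standard error. It passed under all 20 alternatives, with log2 fold changes from -1.26 to -0.60, the last after median centring.

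Ccn1, also known as Cyr61, encodes a secreted matricellular protein that signals through integrins (chromosome 3, 145646976 to 145649981, minus strand). It measured 18.8, 12.4, 5.53 and 10.7 TPM in DSS + GAA libraries 1, 2, 4 and 5, against 90.5, 110, 33.7 and 25.1 TPM in the DSS libraries of the same numbers. The DSS libraries formed a high pair, replicates 1 and 2, and a low pair, replicates 4 and 5, and the low pair still stood above every DSS + GAA library. Ccn1 fell by 2.21 ± 0.50 on the log2 scale (limma adjusted p = 0.0122) and passed under all 20 alternatives, with an adjusted p of 0.00434 to 0.0464.

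The sequences before the transcription starts of Ccn1 and Yap1 are shown because both genes fell and both carry the core letters of the TEAD motif, GGAATG or its reverse complement CATTCC, which are in capitals. Each is the 250 bases upstream of the RefSeq start on GRCm38.p6, read 5′ to 3′ on the minus strand, at chr3:145649986-145650235 for Ccn1 and chr9:8004597-8004846 for Yap1.
Ccn1: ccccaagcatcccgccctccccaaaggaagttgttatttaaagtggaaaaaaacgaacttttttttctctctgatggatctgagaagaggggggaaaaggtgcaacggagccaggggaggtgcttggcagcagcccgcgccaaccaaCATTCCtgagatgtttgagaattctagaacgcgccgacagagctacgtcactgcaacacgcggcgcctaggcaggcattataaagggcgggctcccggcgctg
Yap1: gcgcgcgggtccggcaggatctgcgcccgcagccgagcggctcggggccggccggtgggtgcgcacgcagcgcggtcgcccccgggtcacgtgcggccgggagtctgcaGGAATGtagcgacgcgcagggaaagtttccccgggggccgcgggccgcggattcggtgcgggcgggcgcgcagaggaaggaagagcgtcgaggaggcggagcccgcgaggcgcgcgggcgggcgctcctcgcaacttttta
The motif begins 103 bases before the start in Ccn1 and 141 bases before it in Yap1. RefSeq promoters were available for 5 of the 8 genes, and Anxa1 also held the letters, while the windows of Cd44 and Spp1 did not. Of all 32851 promoter windows of this length, 12.6% held the motif on either strand. The AP-1 motif, TGAGTCA or TGACTCA on both strands, was in none of the 5 genes' windows and in 4.46% of all windows. Without an AP-1 match, no overlap of the motifs was possible in these windows. A match of letters is a description of the window and does not show binding.

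Genes downstream of YAP and TAZ were mixed. Of 22 tested genes commonly listed as YAP/TAZ targets, Ccn1 included, 11 fell, 2 rose and 9 did not pass. Their median log2 fold change was -0.91. Across all tested genes, 28.2% fell and 5.96% rose. Ccn2, encoding connective tissue growth factor, averaged 12.6 ± 6.67 TPM in DSS + GAA and 57.0 ± 16.5 TPM in DSS (SD, n = 4 each; limma adjusted p = 0.00536). Igfbp3, an insulin-like growth factor binding protein gene, averaged 13.6 ± 4.38 TPM in DSS + GAA and 84.4 ± 45.2 TPM in DSS, and Tgfb2 averaged 4.03 ± 1.85 TPM in DSS + GAA and 10.1 ± 2.34 TPM in DSS. The kinase gene Nuak2 went the other way, at 29.4 ± 5.59 TPM in DSS + GAA and 14.7 ± 3.51 TPM in DSS (limma adjusted p = 0.00931). Dock5 was the other gene that rose (log2 fold change 0.46, limma adjusted p = 0.0415), with an adjusted p of 0.0122 to 0.638 over 20 alternatives. Its call was lost when DSS + GAA library 1, 2 or 4 or DSS library 1, 2 or 5 was left out. Ankrd1 (0.34), Amotl2 (-0.24) and Gadd45a (0.01), named after their values were seen, did not pass. The number that fell was 7, 7 and 6 under the trimmed mean, quantile and median rescalings, 6 without DSS replicate 1, and 17 relative to pan-epithelial genes, a scale on which 58.5% of all tested genes were lower. Over all tested genes 4006 fell as deposited and 1308 after median centring.

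Among the components of the Hippo pathway, 15 of 28 tested genes fell and 0 rose, Yap1 included, where 28.2% of all tested genes fell. The median log2 fold change of these components was -0.56. Tead1, a DNA-binding partner of YAP, averaged 11.9 ± 2.76 TPM in DSS + GAA and 30.9 ± 6.71 TPM in DSS (SD, n = 4 each; limma adjusted p = 0.00510). All 4 TEAD genes were among those that fell, as was Wwtr1, which encodes TAZ (-1.61, limma adjusted p = 0.0143). Tead1 passed under all 20 alternatives, while the call of Tead3 was lost under 11. The quantile and median rescalings ended the calls of Tead2 and Tead4, and leaving out DSS replicate 1 those of Wwtr1 and Tead2. Genes of the inhibitory arm fell too: Map4k4, an upstream kinase, averaged 12.9 ± 5.45 TPM in DSS + GAA and 43.2 ± 14.8 TPM in DSS, and the scaffold gene Sav1 averaged 58.0 ± 1.99 TPM in DSS + GAA and 98.4 ± 18.2 TPM in DSS. The kinase gene Lats1 (-0.23, adjusted p = 0.177) and the tumour suppressor gene Nf2 (-0.13, 0.547), named after their values were seen, did not pass. The number of Hippo genes that fell was 9, 6 and 6 under the trimmed mean, quantile and median rescalings, and 7 without DSS replicate 1. Over all tested genes, falls were also fewer under those rescalings, with 1308 after median centring against 4006 as deposited. They numbered 1676 to 4435 with a library left out.

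The CCN family, to which Ccn1 belongs, had 4 tested genes, and all 4 fell, where 28.2% of all tested genes fell. They were Ccn1, Ccn2, Ccn3 (-0.62 on the log2 scale) and Ccn4 (-1.61). Ccn1 and Ccn2 were also counted among the YAP/TAZ targets above. Ccn5 and Ccn6 lay below the test's minimum, and Ccn5 had a higher mean in DSS + GAA (0.567 ± 0.444 TPM) than in DSS (0.0892 ± 0.0731 TPM; SD, n = 4 each). Under each of the 3 rescalings 2 of the 4 passed, Ccn1 and Ccn2. Fewer of all tested genes fell there as well, 1308 after median centring against 4006 as deposited. Ccn4 also missed without DSS replicate 1, 2 or 4, or without the DSS + GAA library of number 4.

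**Figure D2:**
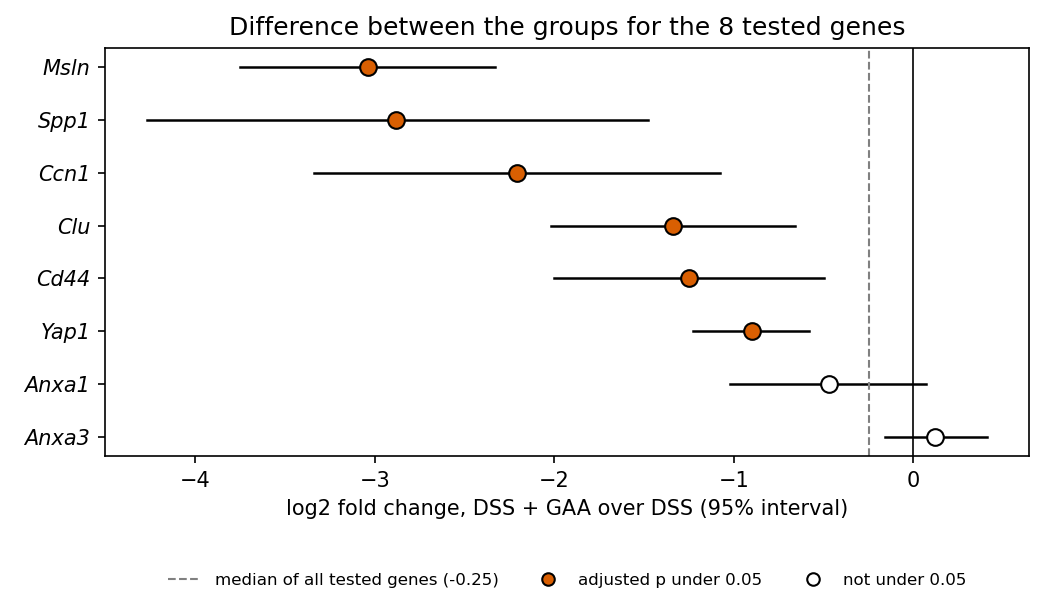
Log2 fold change of DSS + GAA over DSS for the 8 tested genes, with 95% intervals from limma; the dashed line is the median of all tested genes, -0.25. Msln, Spp1, Ccn1, Clu, Cd44 and Yap1 passed, with values from -3.04 to -0.90, and the intervals of Anxa1 and Anxa3 include 0.

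Clu encodes clusterin, a secreted chaperone that marks revival stem cells of damaged mouse intestine (chromosome 14, 65968483 to 65981547, plus strand). It measured 38.2, 28.0, 29.5 and 11.7 TPM in DSS + GAA libraries 1, 2, 4 and 5, against 69.0, 63.9, 66.2 and 57.8 TPM in the DSS libraries of the same numbers. The DSS libraries lay close together, with a highest-to-lowest ratio of 1.19, while DSS + GAA libraries spread over a factor of 3.27. Clu fell by 1.34 ± 0.30 on the log2 scale (limma adjusted p = 0.012) and passed under all 20 alternatives, with log2 fold changes from -1.69 to -1.0. The smallest fall was the one without DSS + GAA replicate 5, the library lowest in Clu.

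Anxa1 was by far the most abundant of the 8 genes on the per-length TPM scale and did not pass. It encodes annexin A1, a calcium-dependent membrane-binding protein that promotes resolution of inflammation through formyl peptide receptors (chromosome 19, 20373428 to 20390944, minus strand). It measured 1215, 913, 650 and 565 TPM in DSS + GAA libraries 1, 2, 4 and 5, against 1238, 1279, 976 and 982 TPM in the DSS libraries of the same numbers. DSS + GAA replicate 1 lay within the DSS range and the other 3 below it. The log2 fold change was -0.47 ± 0.24 (limma adjusted p = 0.155), with a 95% interval from -1.02 to 0.07. Over the 20 alternatives its adjusted p ran from 0.0193 to 0.656, and it passed without DSS + GAA replicate 1 (0.0193) and relative to pan-epithelial genes (0.0389). Its receptor genes Fpr1, Fpr2 and Fpr3, which myeloid cells express, had log2 fold changes of -2.67, -1.77 and -1.49 and all passed, as did S100a11, whose product binds annexin A1 (-0.98). The fall of Fpr1 held under all 20 alternatives. The trimmed mean and median rescalings ended the calls of Fpr2, Fpr3 and S100a11, leaving out DSS replicate 1 those of Fpr2 and Fpr3, and Fpr3 also missed under the quantile rescaling or with DSS + GAA replicate 4 left out.

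Anxa3 encodes annexin A3, another calcium-dependent phospholipid-binding protein (chromosome 5, 96793339 to 96845966, plus strand) and did not pass. It measured 329, 329, 342 and 366 TPM in DSS + GAA libraries 1, 2, 4 and 5, against 324, 365, 305 and 265 TPM in the DSS libraries of the same numbers. Of the DSS + GAA libraries, 3 lay inside the DSS range and replicate 5 just above it. The log2 fold change was 0.12 ± 0.13 (limma adjusted p = 0.478), with a 95% interval from -0.16 to 0.41. It passed as higher after median centring (0.43, adjusted p = 0.0484) and turned to -0.23 relative to pan-epithelial genes, with an adjusted p of 0.0484 to 0.801 over 20 alternatives. Among all 11 tested annexin genes 1 rose and 1 fell, where 5.96% of all tested genes rose and 28.2% fell. Anxa4 rose (475 ± 8.66 TPM in DSS + GAA and 328 ± 39.4 TPM in DSS) and Anxa9 fell (2.32 ± 0.369 TPM in DSS + GAA and 4.31 ± 0.753 TPM in DSS; SD, n = 4 each). Neither call was kept throughout, as Anxa4 missed relative to pan-epithelial genes and Anxa9 under all 3 rescalings and when DSS replicate 1 was left out. Anxa5 and Anxa6 did not pass (-0.76 and -0.81), and the sign of Anxa2 (0.03) turned under 6 alternatives, quantile normalization among them.

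By the exact permutation test of single genes (two-sided, n = 4 per group), p was 0.0286, the smallest that 70 assignments of the libraries allow, for Msln, Clu, Spp1, Yap1 and Ccn1, 0.0571 for Cd44, 0.114 for Anxa1 and 0.229 for Anxa3. The authors' deposited table gives a false discovery rate under 0.05 with a lower level in DSS + GAA for Msln, Clu, Cd44, Spp1 and Ccn1, and for 16.2% of its genes, with 10.3% higher. In the authors' deposited table Yap1 had a log2 fold change of -0.93 and a false discovery rate of 0.101, so its call is not shared by that test.

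The libraries of a group were not alike in these genes. DSS + GAA replicate 1 was the highest of its group for 7 of the 8 genes, all but Anxa3, and DSS + GAA replicate 5 was the lowest for 5. In the DSS group, replicate 1 was the highest for 5 genes and replicate 5 the lowest for 7. In DSS + GAA, replicate 1 also had the highest sum in every stromal, muscle, neural and immune marker list. It had the lowest pan-epithelial sum (21505 TPM), and the lowest mesothelial and squamous sums. The marker sums of other cell types had no single order in DSS. Fibroblast and matrix genes summed to 2602, 1676, 860 and 859 TPM in DSS + GAA libraries 1, 2, 4 and 5, against 6262, 3211, 3845 and 2796 TPM in DSS libraries 1, 2, 4 and 5. Neutrophil genes summed to 723, 428, 271 and 200 TPM in DSS + GAA libraries 1, 2, 4 and 5, against 5036, 3141, 2154 and 6519 TPM in the DSS libraries of the same numbers. In DSS, replicate 5 was thus the lowest in the fibroblast sum and the highest in the neutrophil sum, and it was also the highest in smooth muscle genes (5345 TPM). The part of cell composition in the order of the 8 genes was not tested.

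The wider set of fetal-like and repair genes was mixed. Of 24 tested genes, none of them among the 8, 9 fell, 1 rose and 14 did not pass, where 28.2% of all tested genes fell and 5.96% rose. The median log2 fold change of this set was -0.47. Ptgs2, encoding cyclooxygenase 2, averaged 13.2 ± 7.98 TPM in DSS + GAA and 185 ± 120 TPM in DSS (SD, n = 4 each; limma adjusted p = 0.00628). The epidermal growth factor receptor ligand gene Hbegf averaged 40.9 ± 5.82 TPM in DSS + GAA and 125 ± 65.0 TPM in DSS. The alarmin gene Il33 averaged 12.3 ± 9.20 TPM in DSS + GAA and 50.5 ± 11.3 TPM in DSS, and Basp1, a membrane-associated signalling protein gene, averaged 10.6 ± 5.28 TPM in DSS + GAA and 26.3 ± 3.22 TPM in DSS. Ly6a, the classical surface marker of the fetal-like state, went against the other genes called, at 9818 ± 2397 TPM in DSS + GAA and 5939 ± 706 TPM in DSS (SD, n = 4 each; limma adjusted p = 0.0274). It did not pass after quantile normalization, relative to pan-epithelial genes, with a replicate block, or when DSS replicate 1, 2 or 4 or the DSS + GAA library of number 2 was left out, and it shares sequence with other Ly6 genes, so its reads may be split among them. Without DSS replicate 1, 5 genes of this set fell and 0 rose, and 3 rose under the trimmed mean and median rescalings. Among the calls over all genes, 46.6% and 37.7% were lower on those scales, against 82.5% on TPM as deposited.

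**Figure D3:**
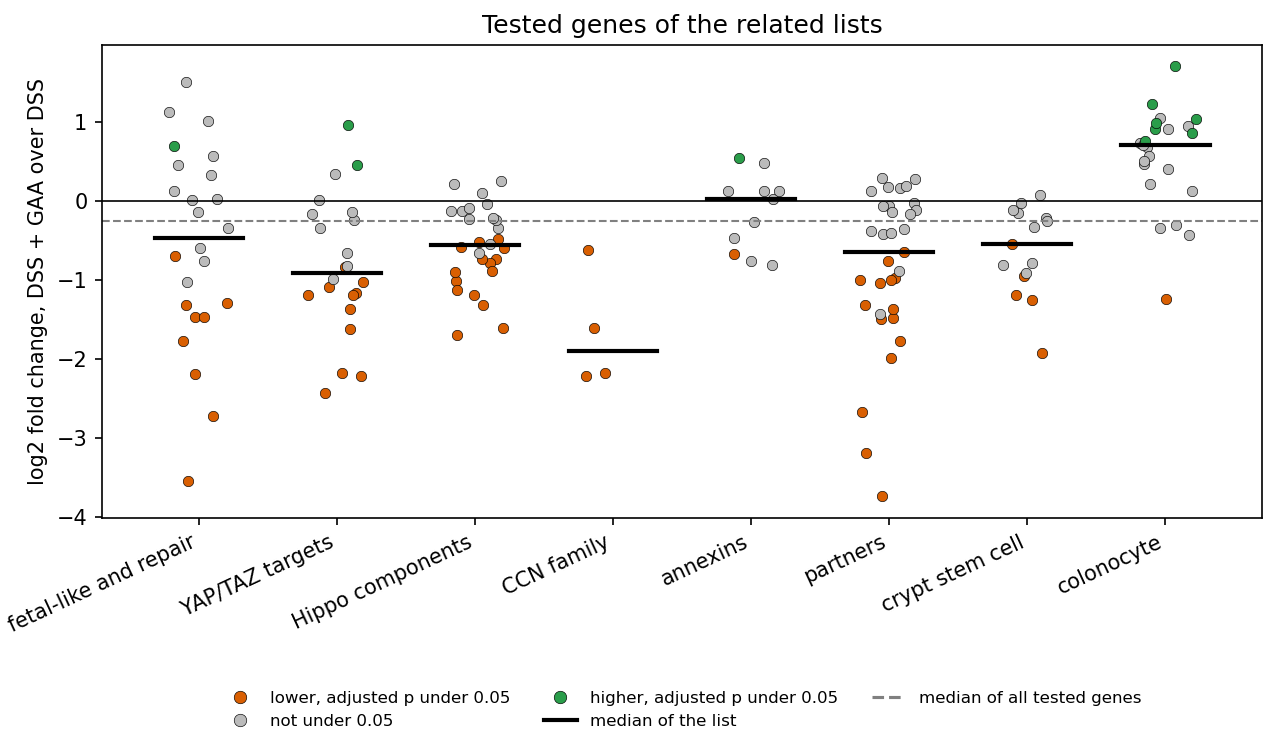
Log2 fold change of every tested gene in the 8 related lists, with the list median as a bar and the median of all tested genes as a dashed line. The CCN family has the lowest median, -1.89, and differentiated colonocyte genes the highest, 0.71.

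Of 15 tested crypt stem cell genes, 5 fell and 0 rose, where 28.2% of all tested genes fell. They were Lrig1, Smoc2, Cd44, Znrf3 and Prom1. Lrig1, a negative regulator of ERBB receptors, averaged 31.1 ± 2.19 TPM in DSS + GAA and 61.5 ± 9.66 TPM in DSS, and Smoc2, a matricellular protein gene that stroma also expresses, averaged 6.48 ± 0.981 TPM in DSS + GAA and 29.7 ± 15.1 TPM in DSS (SD, n = 4 each). The defining stem cell gene Lgr5 lay below the test's minimum, at a mean of 0.121 ± 0.112 TPM in DSS + GAA and 0.335 ± 0.201 TPM in DSS, as did Olfm4, Ascl2 and Notum. Under each of the 3 rescalings, and when DSS replicate 1 was left out, 2 of these genes fell. The number was 3 with a replicate block and when either number 2 or number 4 of either group was left out, and 11 relative to pan-epithelial genes. Lrig1 and Smoc2 passed under all 20 alternatives. Falls over all tested genes moved as well, at 4006 as deposited, 1308 after median centring and 8315 relative to pan-epithelial genes.

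Genes of mature colonocytes lay on the other side. Of 23 tested, 7 rose and 1 fell, where 5.96% of all tested genes rose and 28.2% fell. The median log2 fold change of the list was 0.71. Vil1, encoding the microvillus protein villin, averaged 992 ± 151 TPM in DSS + GAA and 429 ± 113 TPM in DSS, and the water channel gene Aqp8 averaged 713 ± 257 TPM in DSS + GAA and 220 ± 106 TPM in DSS (SD, n = 4 each). Fabp2, a fatty acid binding protein gene, averaged 73.8 ± 11.4 TPM in DSS + GAA and 36.8 ± 13.6 TPM in DSS. The carbonic anhydrase gene Car1 was the gene that fell, at 1200 ± 490 TPM in DSS + GAA and 2704 ± 412 TPM in DSS (SD, n = 4 each). The number that rose was 11 and 14 under the trimmed mean and median rescalings, 11 with array quality weights and 3 relative to pan-epithelial genes. With DSS + GAA replicate 2 left out it was 4, with DSS replicate 1 left out 3, and with DSS replicate 5 left out 12. Car1 passed under all 20 alternatives. Rises over all tested genes moved as well, at 847 as deposited, 2165 after median centring and 326 relative to pan-epithelial genes. They numbered 361 to 1277 with a library left out.

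The tissue label was checked against epithelial markers, which were abundant in all 8 libraries. The 15 pan-epithelial genes summed to 21505 to 26021 TPM in DSS + GAA and 15848 to 19080 TPM in DSS. Of them 5 rose and 0 fell, where 5.96% of all tested genes rose and 28.2% fell. Over all tested genes 847 rose as deposited and 2165 after median centring. The number of pan-epithelial genes that rose was 8 under the trimmed mean and median rescalings and 3 under the quantile rescaling. It was 3 when either DSS replicate 1 or number 4 of DSS + GAA was left out, and 2 without DSS + GAA replicate 2. Each library was therefore also centred on the mean of these genes. Relative to them, 7 of the 8 tested genes fell, Anxa1 included, with a median log2 fold change of -1.65 over the 8 and of -0.61 over all tested genes. On that scale 58.5% of all tested genes passed as lower and 2.29% as higher. Msln stood at -3.39, Spp1 at -3.23, Ccn1 at -2.56, Clu at -1.69, Cd44 at -1.61 and Yap1 at -1.26 on that scale. Centring of this kind moves every gene by nearly the same amount, so the order of the genes is kept.

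Markers of other cell types that whole colon can hold differed in how they lay between the groups. Their counts on TPM as deposited stand beside the 28.2% of all tested genes that fell and the 5.96% that rose. Under the 3 rescalings fewer of all tested genes fell and more rose. Neutrophil genes fell in 8 of 10 tested, with sums of 200 to 723 TPM in DSS + GAA and 2154 to 6519 TPM in DSS. Macrophage and monocyte genes fell in 5 of 15, with sums of 311 to 1168 TPM in DSS + GAA and 768 to 926 TPM in DSS. The 5 were Mrc1, Itgam, Arg1, Gpnmb and Fabp5. Of them, Mrc1 and Itgam passed under all 20 alternatives, and Arg1 under the 16 in which it was tested. Arg1 met the test's minimum only through the DSS libraries, as did the neutrophil genes Ngp and Camp. Calls of Arg1, Ngp and Camp could therefore only be falls. The defining genes Adgre1 (-0.53, limma adjusted p = 0.365) and Csf1r (-0.42, 0.380) did not pass. The macrophage number was 2 of 14 tested without any single DSS library, where Arg1 missed the test's minimum. It was 9 without DSS + GAA replicate 1 and 3 under each of the 3 rescalings. With number 2 or 4 of DSS + GAA left out it was also 3. Fibroblast and matrix genes fell in 7 of 14, and their sums, 859 to 2602 TPM in DSS + GAA and 2796 to 6262 TPM in DSS, did not overlap. Dcn alone held 182 to 575 TPM in DSS + GAA and 1047 to 3317 TPM in DSS, and without it the sums overlap. Col1a1, Col1a2, Col3a1, Pdgfra, Postn, Thy1 and Gsn did not pass. The fibroblast number was 3 when DSS replicate 1 was left out and 11 when DSS + GAA replicate 1 was. Endothelial genes fell in 8 of 11 (36.3 to 145 TPM in DSS + GAA and 148 to 244 TPM in DSS). The endothelial number was 3 under each of the 3 rescalings, 1 without DSS replicate 1, 4 without number 2 of either group and 3 with number 4 of either group or DSS + GAA replicate 5 left out. Enteric glia genes fell in 5 of 8 (47.9 to 111 TPM in DSS + GAA and 101 to 135 TPM in DSS) and enteric neuron genes in 10 of 10 (193 to 561 TPM in DSS + GAA and 994 to 1839 TPM in DSS). The glial number was 3, 3 and 2 under the trimmed mean, quantile and median rescalings and 2 without DSS replicate 1, while all 10 neuron genes fell under the 4 scalings and with any library left out. Smooth muscle genes passed in limma in 0 of 10, also 0 at an unadjusted p under 0.05 (1565 to 3823 TPM in DSS + GAA and 1924 to 5345 TPM in DSS). Genes of T and NK cells rose in 8 of 11 and fell in 0 (155 to 432 TPM in DSS + GAA and 87.3 to 111 TPM in DSS). Cd4 and the NK cell genes Ncr1 and Klrd1 did not pass, as reported or under any alternative. B and plasma cell genes fell in 1 of 9, Sdc1 (1305 to 3632 TPM in DSS + GAA and 1664 to 2436 TPM in DSS). Squamous epithelium, which can be carried along from the anal canal, was low: its 13 genes in the table summed to 8.48 to 12.6 TPM in DSS + GAA and 16.2 to 18.4 TPM in DSS, and Krt5, Krt14 and Trp63 were below the test's minimum, while Sbsn and Dsg3 fell. None of the markers in the table was at 0 in all 8 libraries. The part of these cell types in the falls of the 8 genes was not tested.

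**Figure D4:**
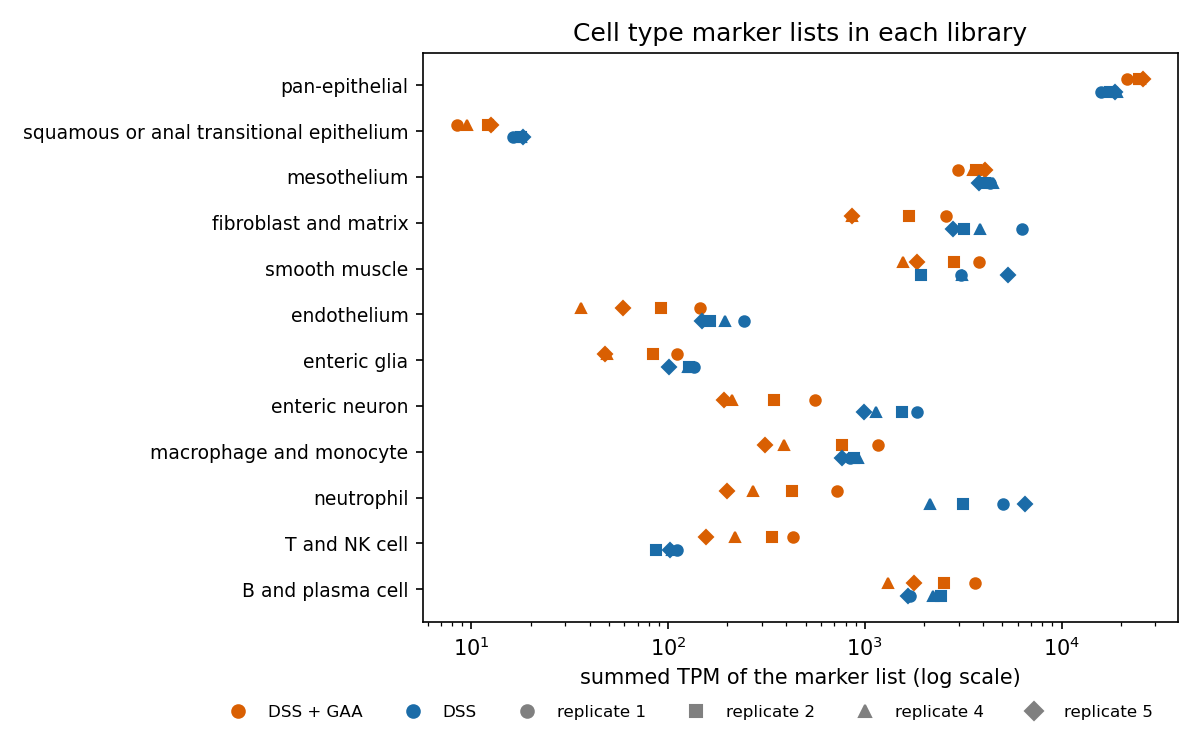
Summed TPM of each cell type marker list in each library, on a log axis, with DSS + GAA above DSS in each row. Neutrophil, fibroblast, endothelial and enteric neuron sums are lower in every DSS + GAA library, pan-epithelial sums are higher, and macrophage and smooth muscle sums overlap.

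For each tested gene, the 2 genes with the most similar profile were found among 13132 tested genes with a mean of at least 2 TPM, by the root mean square difference of centred log2(TPM + 1) values over the 8 libraries. Nearest to Msln were Itgb8 (0.235) and Arg1 (0.268). Arg1, encoding arginase 1, averaged 0.661 ± 0.191 TPM in DSS + GAA and 16.4 ± 12.5 TPM in DSS (SD, n = 4 each). Nearest to Spp1 were Dio2 (0.375) and Il19 (0.417), the largest differences found for any of the 8 genes. The measure grows with a gene's own spread between libraries, so it does not rank likeness across the 8 genes. Nearest to Ccn1 were Apold1 (0.193) and Mt3 (0.199). Yap1 was closest to Adam9 (0.073) and Nfib (0.074), Clu to Arid5a (0.214) and Hcar2 (0.227), and Cd44 to Syt13 (0.139) and Itprip (0.141). Anxa1 was closest to Nfkbie (0.075) and Hpse (0.086), and Anxa3 to Gmfg (0.073) and Pfkp (0.078). None of the 8 genes was among the 2 nearest of another.

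**Figure D5:**
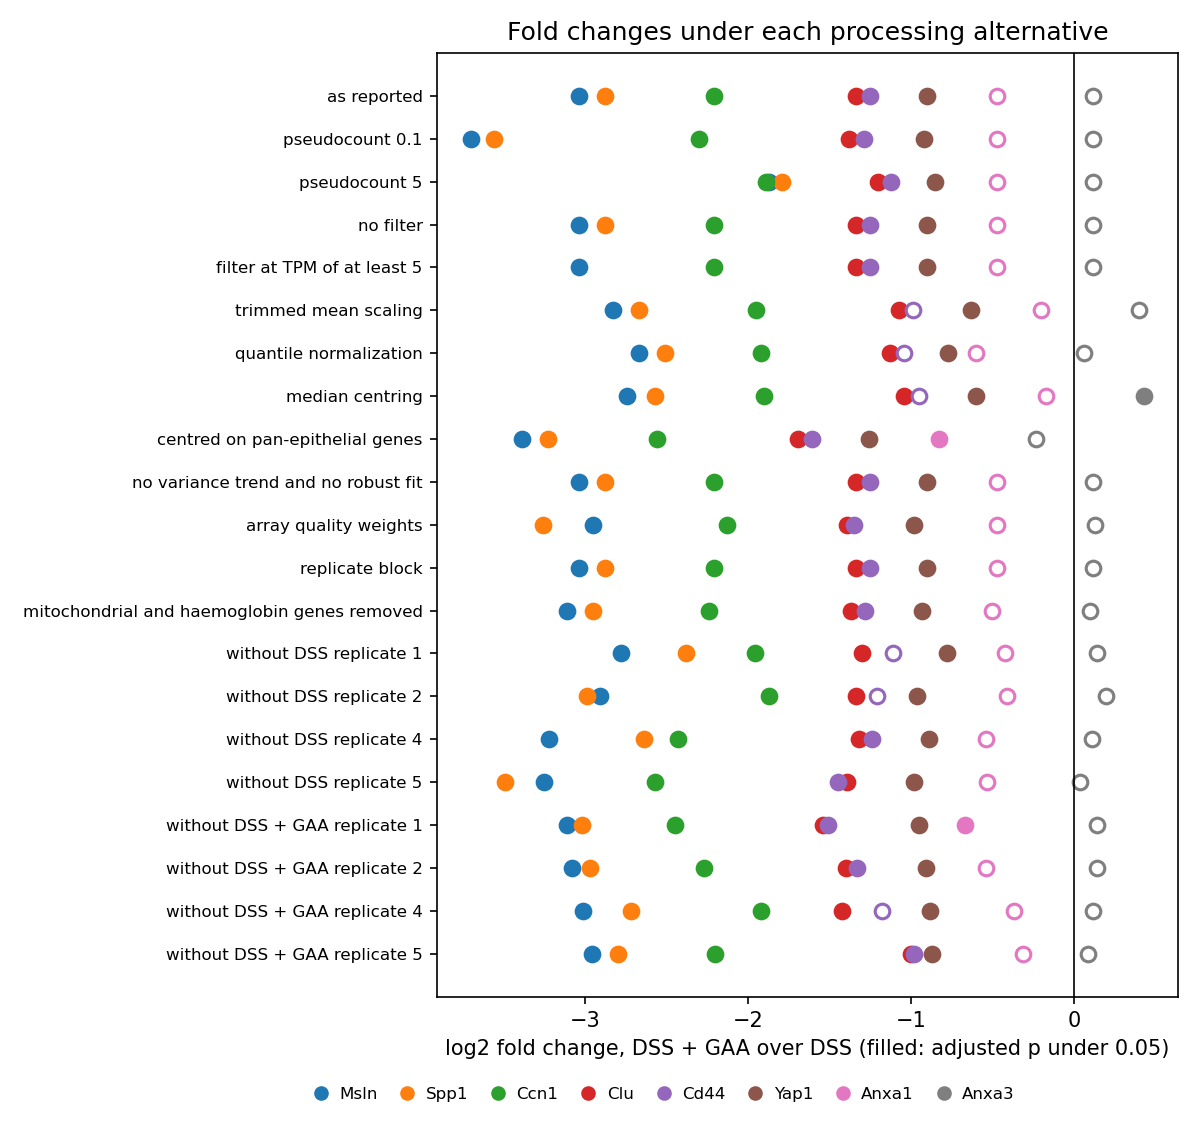
Log2 fold change of the 8 tested genes under each processing alternative, one row each, with filled points for an adjusted p under 0.05. Msln, Spp1, Ccn1, Clu and Yap1 are filled in every row where they were tested; Cd44 is open in 6 rows, Anxa1 is filled in 2 and Anxa3 in 1.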

How the data were processed

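The authors deposited 1 table with a TPM value for each of 18262 genes in 8 libraries, and the TPM values of each library add up to about 1000000. TPM keeps no record of depth, so the depth and the counting error of each value are unknown. The same deposited table holds the authors' log2 fold change, p-value and false discovery rate, from a test that the sources used here do not name. The tools, per the submitters' processing notes, include HISAT2, featureCounts and edgeR, and the build was mm10. Per the labels' protocols, poly(A) RNA was sequenced in paired ends; whether strand was kept is not stated. Gene models overlap exons of Spp1, Anxa3 and, on the other strand, Yap1, so reads there could be shared. Coordinates are from GENCODE vM21 on GRCm38, which is mm10.

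TPM was analysed as log2(TPM + 1) with limma 3.58.1 in R 4.3.3, with group as the only term and robust empirical Bayes with a mean-variance trend, over the 14217 genes at 1 TPM or more in at least 4 libraries. P-values are two-sided, with the Benjamini-Hochberg adjustment made across the tested genes. Fold changes of genes near 1 TPM are understated on this scale. Errors are SD of TPM (n = 4) or standard errors of log2 fold changes. Nothing in the labels says that libraries come from separate animals, so p-values measure only how these samples spread, which may be technical. The script was tested on simulated data.

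The 8 genes, 8 related lists and 12 marker lists were chosen with earlier results of these data known and matched by symbol or RefSeq synonym, and lists are described by counts and medians without a set test. Named genes are the 8, the 4 listed genes with the smallest p per list, receptors and ligands of the 8, and the 2 nearest profiles; the remainder were picked after their values were seen. In marker lists the defining genes were named instead. The 20 alternatives were other pseudocounts, filters and scalings (trimmed mean, quantile, median, pan-epithelial), removal of mitochondrial and haemoglobin genes, other variance settings, array quality weights, a replicate block and each library left out. Some genes of these lists are not reported here, and list counts leave them out.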

Additional observations from a re-analysis of the deposited data

How the results depend on the processing

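Msln, Spp1, Ccn1, Clu and Yap1 kept their direction and their call under every alternative in which they were tested; Spp1 was not tested at a minimum of 5 TPM. The number of the 8 genes called lower was 5 to 7, and 1 was called higher after median centring (Anxa3, whose value turned to -0.23 relative to pan-epithelial genes). Scaling changed the calls over all genes, and the trimmed mean factors were 0.874 to 0.94 in DSS + GAA and 1.015 to 1.189 in DSS libraries. Higher and lower genes numbered 847 and 4006 on TPM as deposited (82.5% of calls lower), 1890 and 1648 after trimmed mean scaling (46.6%), 1677 and 1601 after quantile normalization (48.8%), 2165 and 1308 after median centring (37.7%), and 326 and 8315 relative to pan-epithelial genes (96.2%). The median of all genes was 0.00, 0.02, 0.05 and -0.61 under these 4 scalings. With a library left out, 361 to 1277 genes were higher and 1676 to 4435 lower. Lower YAP/TAZ targets numbered 11 as reported, 7 after trimmed mean scaling, 7 after quantile normalization, 6 after median centring, 17 relative to pan-epithelial genes, and 6 to 14 with a library left out. Lower Hippo components numbered 15 as reported, 9, 6 and 6 under the first 3 scalings, and 7 to 17 with a library left out. Lower fetal-like and repair genes numbered 9 as reported and 5 to 12 with a library left out. The causes of these changes were not tested. Pairing by equal replicate numbers was not evident: deviations from the group means correlated at 0.18, -0.109, 0.146 and -0.03 for numbers 1, 2, 4 and 5. Correlations between unequal numbers were not set beside them, so these values do not decide whether the libraries were paired. With a replicate block, 679 genes were higher and 3340 lower, and the calls of the 8 tested genes stayed as reported. Unknown depth leaves the error of low values, such as Msln in DSS + GAA, unquantified.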
